A study of Mus musculus with 12 samples.

Results

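The response of heart muscle cells to isoprenaline was compared between cells with and without the calcium/calmodulin-dependent kinases CaMKII delta and gamma. The quantity examined was the interaction: the log2 effect of isoprenaline (Iso) in myocytes without these kinases minus its log2 effect in wild-type myocytes. A negative interaction means that Iso raised a gene less, or lowered it more, in the absence of the kinases. All 12 of the 12 arrays in the series enter this quantity, and 13737 of the 24704 genes on the arrays were tested, namely those above the median of their array on at least 3 arrays.

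The cells were ventricular myocytes of adult mice, isolated enzymatically from hearts perfused on a Langendorff apparatus and then cultured. Of the 6 mice, 3 were wild type (WT) and 3 were double knockouts lacking CaMKII delta and CaMKII gamma (DKO), here called by number within their genotype. Myocytes of each mouse gave an untreated array and an array after 24 h with 100 nM Iso, so that 4 groups of 3 arrays resulted: WT, WT with Iso, DKO and DKO with Iso. The study asked whether a phosphorylation of histone H3 evoked by Iso is accompanied by changes in gene expression. The sources used here do not say in which cells of the animals the kinase genes were deleted.

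Isoprenaline activates beta-adrenergic receptors, which raise cyclic AMP, open calcium channels and switch on protein kinase A. CaMKII is activated by the calcium that follows, and it phosphorylates calcium-handling proteins at the sarcoplasmic reticulum and class IIa histone deacetylases in the nucleus. Phosphorylated class IIa deacetylases leave the nucleus, which frees MEF2 transcription factors. Delta and gamma are the CaMKII forms of heart muscle, and alpha and beta are known mainly from neurons.

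The probe set for Camk2g, the gene of the gamma kinase, read 4.78 to 5.80 (log2) on the 6 WT arrays and 3.57 to 4.20 on the 6 DKO arrays, with no overlap. That for Camk2d, the gene of the delta kinase, read 7.94 to 8.42 in WT and 7.36 to 7.98 in DKO, with overlap, and a probe set outside the deleted part of a gene checks nothing. Markers of ventricular myocytes averaged 10.70 to 10.96 on every array, against 6.19 to 6.80 for endothelial and 4.15 to 4.61 for macrophage and leukocyte markers and an array median of 3.32. Untreated DKO array 3 stood apart: its median correlation with the other arrays was 0.956, against 0.984 to 0.988 for the others, and its root mean square residual was 0.374, where the others ran from 0.141 to 0.276. It enters every interaction, and values without it are given for some of the genes and lists. An interaction printed without such a value may depend on this array too.

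The sequences shown here are those the results below return to. Mir1932, 1 of the 2 genes that passed the test, encodes a microRNA, a short RNA that pairs with messenger RNAs through its seed. Its mature form lies at chr11:119390524-119390545 on the plus strand (GRCm38.p6, RefSeq) and reads as follows, with the seed (bases 2 to 8) in capitals.
miR-1932: gUUGCGGAcagcgcuaggucgg
Stretches of promoters are shown for a few genes described below that hold the motif of MEF2, the factor on CaMKII's known nuclear route, or of CREB, the factor on the cyclic AMP route. For Mef2a, Xirp2 and Myoz2, chosen from the genes with an interaction above 0, the capitals mark the MEF2 motif, and for Dusp1 and Ube2b they mark the cyclic AMP response element TGACGTCA (CRE). The windows are chr7:67372826-67372885 (minus strand) for Mef2a, chr2:67445903-67445962 (plus) for Xirp2, chr3:123034986-123035045 (minus) for Myoz2, chr17:26508583-26508640 (minus) for Dusp1 and chr11:52000755-52000812 (minus) for Ube2b. They come from RefSeq on GRCm38.p6 and are written 5′ to 3′ on the gene's strand.
Mef2a: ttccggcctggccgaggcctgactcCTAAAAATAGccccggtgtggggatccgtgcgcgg
Xirp2: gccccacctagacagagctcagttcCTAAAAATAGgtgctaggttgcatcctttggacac
Myoz2: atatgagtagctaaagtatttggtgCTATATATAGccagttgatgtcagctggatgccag
Dusp1: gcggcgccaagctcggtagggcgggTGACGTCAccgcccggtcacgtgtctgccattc
Ube2b: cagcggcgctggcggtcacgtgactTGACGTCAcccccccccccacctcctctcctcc

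Both genes that passed carry the names of microRNA genes, Mir5112 and Mir1932, and both responded to Iso in WT myocytes but not detectably in DKO myocytes. In limma's test with Benjamini-Hochberg adjustment over the 13737 genes, 2 genes (0.0146%) had a lower Iso effect in DKO at an adjusted p under 0.05 and 0 genes (0%) a higher one. At an unadjusted p under 0.05 there were 635 genes lower (4.62%) and 753 higher (5.48%), 1388 in either direction (10.1%), where 687 are given by chance. Which transcript the probe sets with microRNA names detect, the precursor, the mature form or a longer host transcript, was not determined here.

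Mir5112 read 5.73, 5.81 and 6.46 in untreated WT and 10.3, 10.1 and 10.6 in WT with Iso. In DKO it read 7.45, 7.18 and 7.88 untreated and 6.96, 7.39 and 7.50 with Iso. The 3 WT arrays with Iso lay above all 9 others, and the DKO arrays of both kinds overlapped and lay between the WT groups. The difference within each mouse was 4.53, 4.27 and 4.11 in WT and -0.49, 0.21 and -0.38 in DKO. The interaction was -4.52 (SE 0.33, adjusted p = 7.9e-05, limma), a 23.0-fold difference between the Iso effects, and it was -4.34 (adjusted p = 6.4e-05) without untreated DKO array 3. DKO minus WT was 1.504 untreated (adjusted p = 0.0195) and -3.02 with Iso (adjusted p = 7.8e-05), so the order of the genotypes was opposite in the untreated and treated cells.

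Mir1932 read 3.62, 3.80 and 3.84 in untreated WT and 5.95, 6.20 and 6.76 in WT with Iso. In DKO it read 4.08, 3.70 and 4.51 untreated and 3.96, 3.91 and 3.57 with Iso. Here the WT arrays with Iso were high and the other 3 groups overlapped. The interaction was -2.83 (SE 0.32, adjusted p = 0.00642, limma), 7.10-fold, and -2.62 (adjusted p = 0.0048) without untreated DKO array 3. Both genes passed in each of the 25 alternative settings that tested them, with adjusted p of 2.8e-06 to 0.00074 for Mir5112 and 0.000193 to 0.0414 for Mir1932. Mir1932, whose mature sequence is given above, lies inside Rnf213, the gene of a large ubiquitin ligase. Rnf213 read 3.71 ± 0.112 in WT, 3.92 ± 0.304 in WT with Iso, 3.78 ± 0.0856 in DKO and 3.87 ± 0.108 in DKO with Iso (SD, n = 3). Its interaction was -0.11 (95% interval -0.57 to 0.35, adjusted p = 0.866). These means lie little above the array median of 3.32, which limits what they show of Rnf213.

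**Figure D1:**
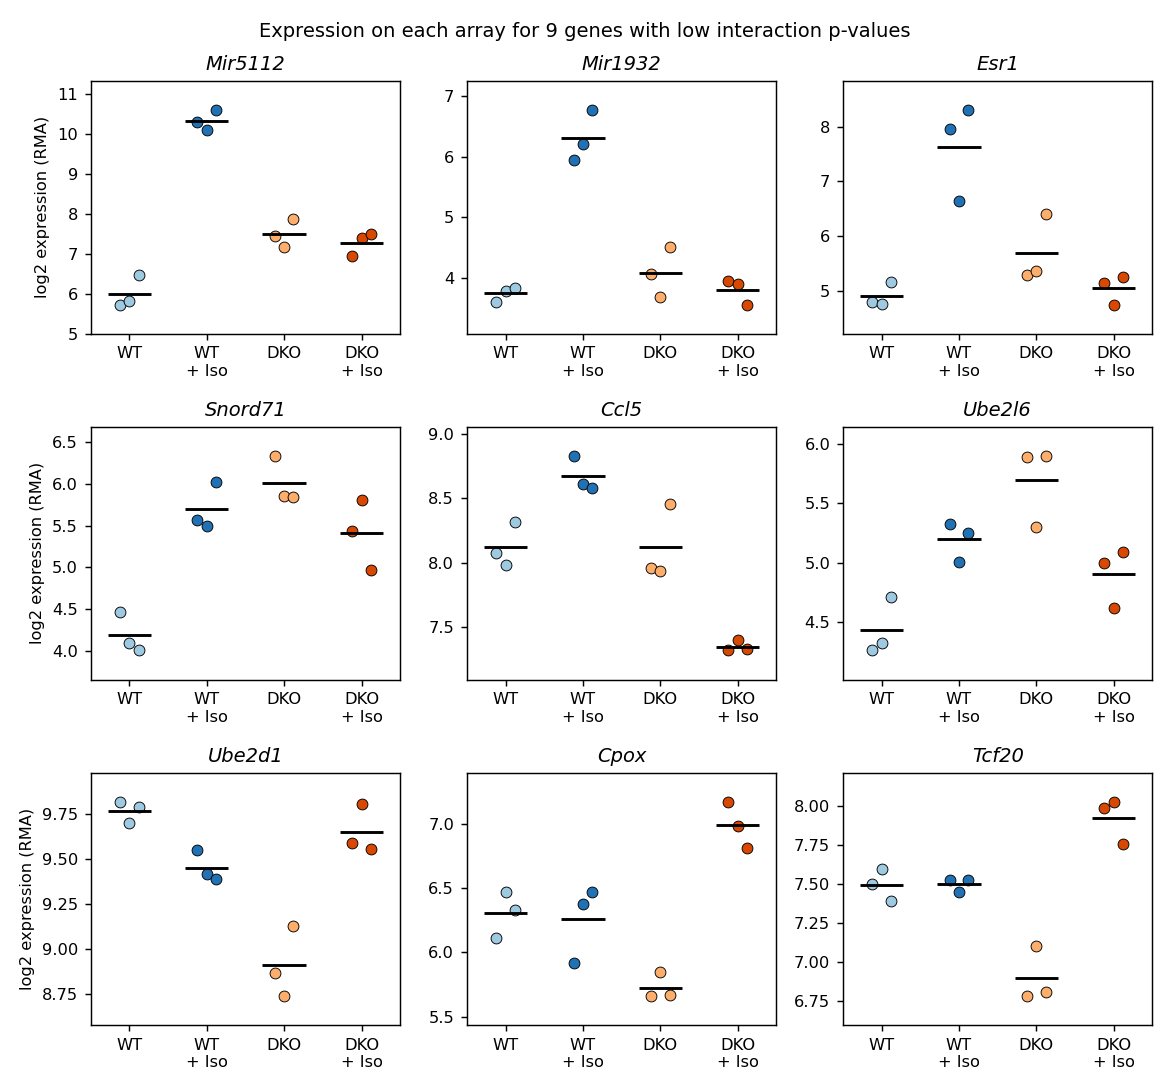
Expression on each array (log2, RMA values) for 9 genes with low interaction p-values, by group; points are arrays in order of mouse number, horizontal lines are group means (n = 3), and each panel has its own scale. Mir5112 and Mir1932 are high on the 3 WT arrays with Iso and on no other array, whereas Snord71 and Ube2l6 are already high in untreated DKO and Cpox and Tcf20 are highest in DKO with Iso.

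The genes next in order of p with a lower Iso effect in DKO did not pass in the fit of all 12 arrays. They were Snord71, Esr1, Ccl5, Rmrp, Mir187, Ube2l6, Ighg2c, Zfp719, Fah and Hbb-bt, with interactions from -0.85 to -3.37 and adjusted p of 0.0952 to 0.167. Leaving out untreated DKO array 3 gave 7 genes (0.051%): Mir5112, Mir1932, Snord71, Ccl5, Rmrp, Mir187 and, with a higher effect in DKO, Ube2d1. Leaving out untreated DKO array 2 gave 16. With the mouse as a block, which compares the arrays of 1 animal with each other, 5 genes passed: Mir5112, Mir1932, Esr1, Mir187 and Hbb-bt.

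Esr1 encodes estrogen receptor alpha, a transcription factor activated by estrogen. It read 4.79, 4.76 and 5.17 in WT, 7.95, 6.64 and 8.30 in WT with Iso, 5.29, 5.36 and 6.41 in DKO and 5.14, 4.75 and 5.25 in DKO with Iso. As for the microRNA genes, the WT arrays with Iso were above all others. The Iso difference was 3.16, 1.88 and 3.12 in the WT mice and -0.16, -0.62 and -1.16 in the DKO mice. The interaction was -3.37 (SE 0.54, adjusted p = 0.102, limma) in the fit of all 12 arrays. It was -3.005 (adjusted p = 0.0546, limma) without untreated DKO array 3. In limma's fit with a term for each mouse it passed (adjusted p = 0.0232). Over the alternatives the adjusted p ran from 0.00634 to 0.359.

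Snord71, a small nucleolar RNA of the class that guides methylation of ribosomal RNA, had another pattern. It read 4.47, 4.10 and 4.01 in WT, 5.57, 5.49 and 6.02 in WT with Iso, 6.33, 5.85 and 5.84 in DKO and 5.44, 5.81 and 4.97 in DKO with Iso. Untreated WT lay below the other 3 groups, and WT with Iso overlapped with both DKO groups. The interaction was -2.10 (SE 0.32, adjusted p = 0.0952, limma), and -2.18 (adjusted p = 0.0481) without untreated DKO array 3. Rmrp, the RNA of the ribonuclease MRP that processes ribosomal RNA precursors, was likewise low in untreated WT (3.80, 4.78 and 4.87) and high in untreated DKO (6.80, 6.15 and 7.85). With Iso it read 6.54, 5.70 and 6.04 in WT and 5.11, 5.53 and 5.33 in DKO, so that the groups changed order. Its interaction was -3.22 (SE 0.54, adjusted p = 0.102, limma), and -2.76 (adjusted p = 0.0481) without untreated DKO array 3.

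Ccl5 encodes a chemokine that attracts T cells and monocytes. It read 8.08, 7.98 and 8.32 in WT, 8.83, 8.61 and 8.58 in WT with Iso, 7.96, 7.94 and 8.46 in DKO and 7.32, 7.40 and 7.33 in DKO with Iso. The untreated groups overlapped, the WT arrays with Iso were the highest and the DKO arrays with Iso the lowest. The interaction was -1.32 (SE 0.22, adjusted p = 0.102) and -1.15 (adjusted p = 0.0481) without untreated DKO array 3. Hbb-bt, a beta globin gene of red blood cells, read 9.0, 8.85 and 9.92 in WT, 10.3, 10.1 and 10.3 in WT with Iso, 9.62, 9.29 and 10.8 in DKO and 8.22, 7.70 and 8.64 in DKO with Iso. The DKO arrays with Iso were again the lowest (interaction -2.69, SE 0.52, adjusted p = 0.167 in limma, and 0.0164 to 0.569 over the alternatives). Without untreated DKO array 3 the interaction of Hbb-bt was -2.245. In RNA from many cells, fewer cells of a type and less RNA per cell cannot be told apart. The other 6 erythroid and platelet markers tested averaged 5.37 to 5.43 in WT, 5.25 to 5.58 in WT with Iso, 4.89 to 5.09 in DKO and 4.89 to 5.19 in DKO with Iso, so that the DKO groups overlapped. Over the 7 markers tested, Hbb-bt included, the median interaction was -0.25, with 5 below 0, and -0.17 without untreated DKO array 3. Gp6, a platelet receptor among them, went the other way, with an interaction of 0.95 (adjusted p = 0.251). Its untreated DKO values of 3.14, 2.94 and 2.89 were dim, below the array median of 3.32. The part of these cells in the result for Hbb-bt was not tested.

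Among genes with a higher Iso effect in DKO, none passed, and the 12 with the smallest p had interactions of 0.75 to 1.31 and adjusted p of 0.102 to 0.251. Ube2d1, a ubiquitin-conjugating enzyme that works with many ubiquitin ligases, came first. It read 9.82, 9.70 and 9.79 in WT, 9.55, 9.42 and 9.39 in WT with Iso, 8.87, 8.74 and 9.13 in DKO and 9.59, 9.81 and 9.56 in DKO with Iso. Untreated DKO lay below the other 3 groups. The interaction was 1.06 (SE 0.18, adjusted p = 0.102, limma), and 1.17 (adjusted p = 0.0474) without untreated DKO array 3.

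Cpox and Tcf20 had an Iso effect near 0 in WT (-0.05 and 0.01). Cpox, an enzyme of heme synthesis in mitochondria, read 6.11, 6.47 and 6.33 in WT, 5.92, 6.38 and 6.47 in WT with Iso, 5.66, 5.85 and 5.67 in DKO and 7.17, 6.98 and 6.81 in DKO with Iso. The WT groups overlapped, and the DKO groups lay on either side of them (interaction 1.31, SE 0.23, adjusted p = 0.102). Without untreated DKO array 3 the interaction of Cpox was 1.28. Tcf20, a transcriptional coregulator, had the same order, with an Iso effect of 1.03 in DKO (interaction 1.02, adjusted p = 0.102). Without that array its interaction was 0.975. The other 9 included Ncbp2 of the messenger RNA cap-binding complex, the ubiquitin-conjugating enzyme Ube2a, the prefoldin subunit Pfdn2, the transcription factors Nfia and Mtf1, the endosomal GTPase Rab21, the adaptor Garem1, and the kinase Hipk2. For each of these 8 the mean Iso effect was below 0 in WT (-0.28 to -0.59) and above 0 in DKO (0.19 to 0.605), and the untreated DKO mean lay below the untreated WT mean. The last was Polr2h, an RNA polymerase subunit, which read above the array median only on the 3 DKO arrays with Iso (3.34, 3.51 and 3.55). It entered the test through that group, so its values in the other groups are dim and their order is not read.

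**Figure D2:**
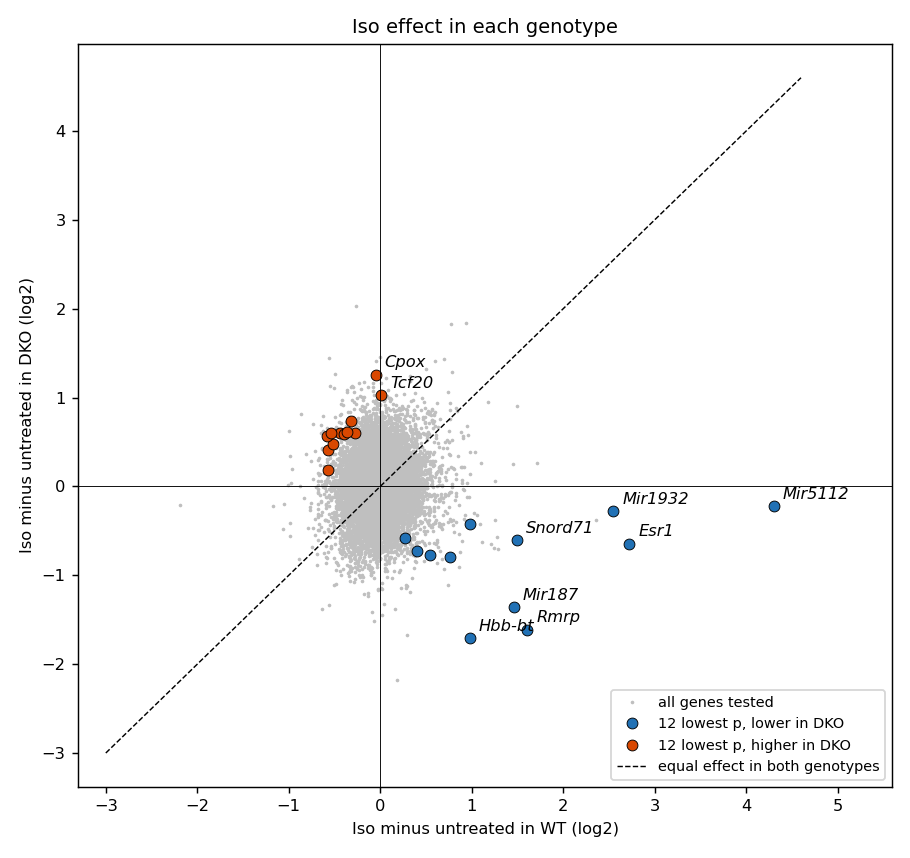
Iso effect in DKO (vertical axis, log2) against Iso effect in WT (horizontal axis, log2) for the 13737 genes tested (grey), with the 12 genes of smallest interaction p in each direction in colour and the line of equal effects dashed. Mir5112, Mir1932 and Esr1 lie far to the right near or just below 0 on the DKO axis, Rmrp, Mir187 and Hbb-bt lie at positive WT and negative DKO effects, and the genes with a higher effect in DKO lie close together at negative or near-zero WT and positive DKO effects.

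**Figure D3:**
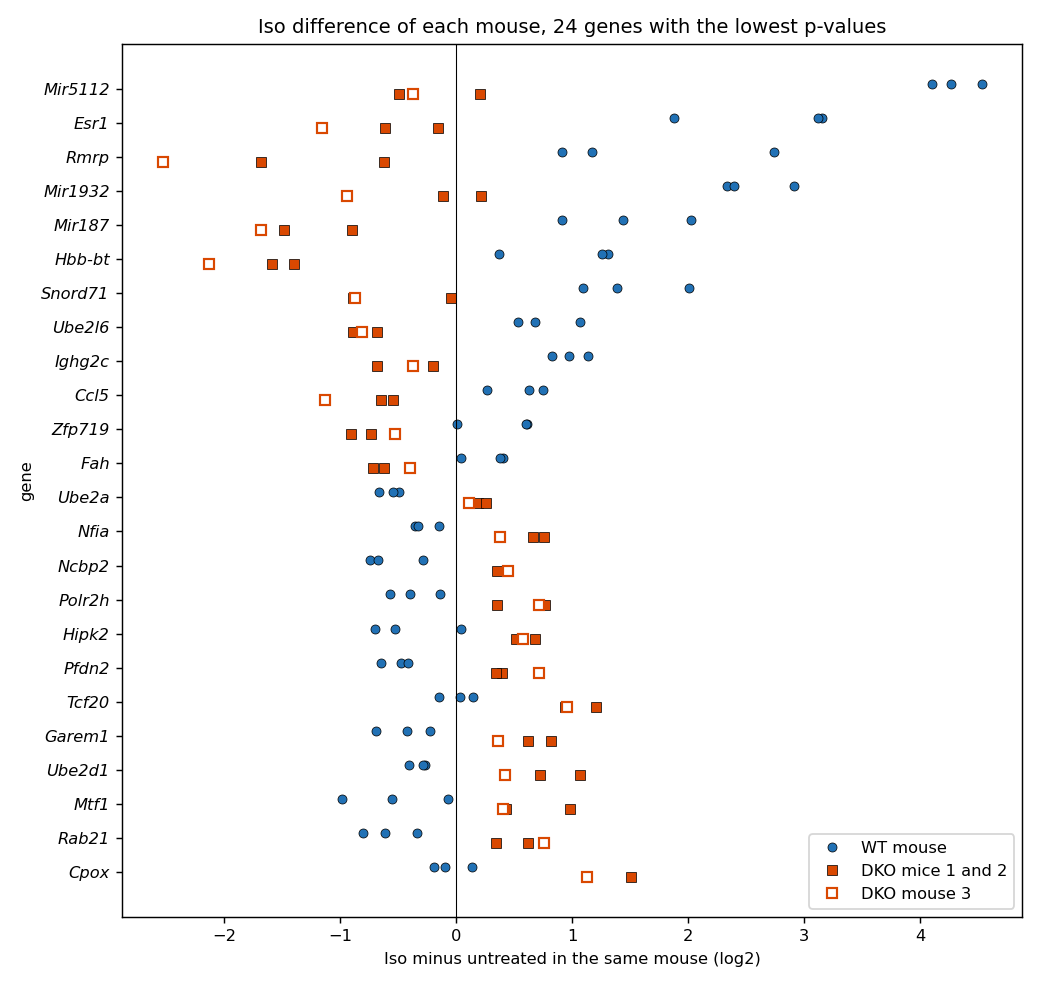
Iso minus untreated within each mouse (log2) for the same 24 genes, with 3 WT mice (circles) and 3 DKO mice (squares; mouse 3, whose untreated array stood apart, is open) per gene. The squares lie to the left of the circles for the 12 upper genes and to the right for the 12 lower ones, as selection by a small p favours, and the DKO mouse 3 value is the lowest of the DKO mice for Esr1, Rmrp, Hbb-bt and Ccl5, among others.

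The interaction can arise in several ways, and the groups were therefore compared over all genes. The Iso differences of the 3 DKO mice all lay below those of the 3 WT mice for 1081 genes (7.87%) and all above for 1337 genes (9.73%). Among the 1388 genes with an unadjusted p under 0.05, Iso effects had opposite signs in the genotypes for most: 527 (38.0%, against 22.3% of all genes tested) were up in WT and down in DKO, and 655 (47.2%, against 25.4%) the reverse. The effect of Iso had an unadjusted p under 0.05 in WT alone for 256 of them (18.4%, against 4.98% of all genes), in DKO alone for 827 (59.6%, against 16.7%), in both for 67 and in neither for 238. Genes with an effect in DKO alone thus outnumbered those with an effect in WT alone over all genes too. The untreated DKO group was the farthest from the other 3 groups for 664 of the 1388 genes (47.8%, against 37.9% of all genes). These shares share their arrays with the interaction that selected the genes, and they are given as a description.

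Untreated DKO array 3 bears on those shares. Without it, 1389 genes had an unadjusted p under 0.05, of which 980 (70.6% of either list) were in both lists. The share with an Iso effect in DKO alone was 49.7% (691 genes, against 12.4% of all genes), that in WT alone 26.6% (370 genes, against 8.44%), and the untreated DKO group was farthest for 39.7% (552 genes, against 32.2% of all genes). The median standard error of the interaction was 0.235 with the array and 0.209 without it. It was 0.166 for the Iso effect in a genotype. The 5th and 95th percentiles of the interaction over genes were -0.59 and 0.63, and 125 genes had an interaction below -1 and 109 above 1.

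Genes of small nucleolar RNAs, which guide the chemical modification of ribosomal and spliceosomal RNA, had the lowest median of the lists. Of 58 tested, 19 had an unadjusted p under 0.05 with a lower effect in DKO and 0 with a higher one. These were 32.8% of the class, against 10.1% of all genes, and 0 passed after adjustment over all genes. Their median interaction was -0.73, with 47 below 0, against 0.01 over all genes, and -0.42 without untreated DKO array 3. The median Iso difference of the class was 0.49, 0.08 and 0.43 in the WT mice and -0.27, 0.10 and -0.72 in the DKO mice, so that DKO mouse 2 lay within the range of the WT mice. Snord17 read 7.73, 7.87 and 8.22 in WT, 10.7, 9.48 and 10.7 in WT with Iso, 9.52, 8.79 and 10.7 in DKO and 9.10, 9.33 and 9.47 in DKO with Iso. Untreated WT was again below the other 3 groups, of which untreated DKO spanned both groups with Iso (interaction -2.74, SE 0.59, adjusted p = 0.236). Without untreated DKO array 3 the interaction of Snord17 was -2.21.

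Most small nucleolar RNAs are cut from introns of host genes, so their hosts were read beside them, a comparison chosen after the values were seen. A host here is a protein-coding or long non-coding gene whose span encloses the small RNA. Its strand and introns were not checked. For 38 of the 58 a host was tested, and these 38 had a median interaction of -0.81, with 30 below 0. Their 30 hosts had a median of 0.15, with 12 below 0 and 3 at an unadjusted p under 0.05 (1 lower, 2 higher). Without untreated DKO array 3 the medians were -0.43 and 0.04. Snord17 stood at -2.74 and its host Snx5, a sorting nexin, at 0.64; Snord71 stood at -2.10 and its host Ap1g1, an adaptor subunit, at 0.24. Genes named for microRNAs as a class had a median of -0.08 over 143 tested, with 13 lower and 2 higher at an unadjusted p under 0.05, 2 of them passing. These are 10.5% of the class, against 10.1% of all genes. The median was -0.01 without untreated DKO array 3 and -0.04 without untreated WT array 3.

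**Figure D4:**
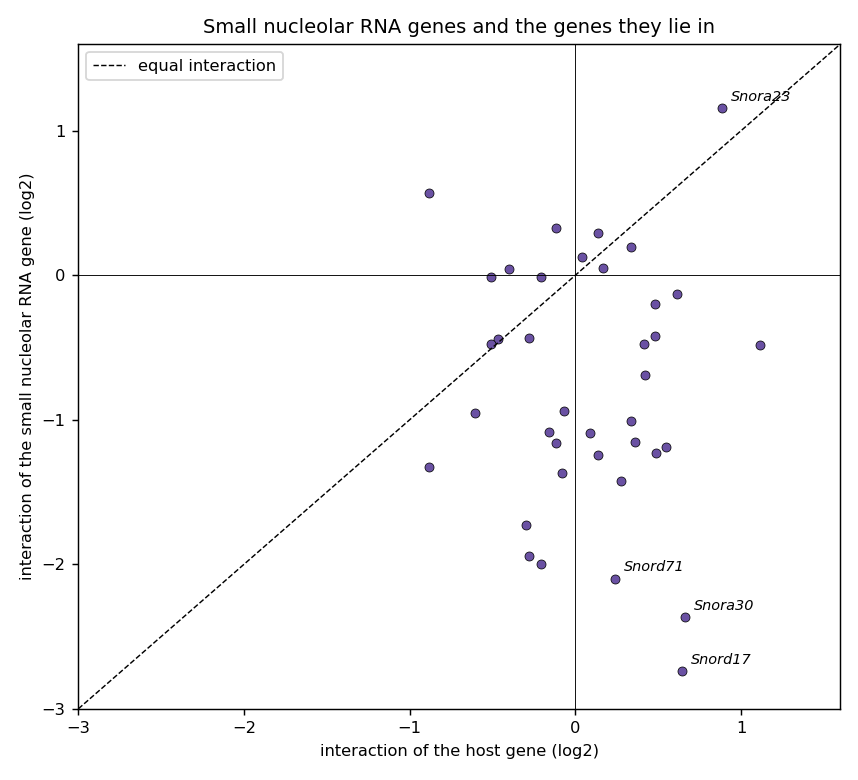
Interaction (log2) of each of 38 small nucleolar RNA genes (vertical axis) against that of the gene it lies in (horizontal axis); the dashed line marks equal values, and hosts with several such RNAs appear more than 1 time. Of the 38 points 30 lie below 0 on the vertical axis, while the hosts spread to both sides of 0.

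Early-response genes, which beta-adrenergic signalling induces through CREB and related factors, were read at 24 h of Iso, and earlier times were not measured. Their median interaction was -0.09 over 36 tested. It was -0.05 without untreated DKO array 3 and lay between that and -0.19 leaving out any 1 array, with shifts of over 1.5 times also without untreated DKO array 1 and without WT array 2 or 3 with Iso. None passed. At an unadjusted p under 0.05, 6 had a lower effect in DKO (Klf4, Zfp36, Junb, Dusp1, Rgs2 and Fos) and 2 a higher one (Nr4a3 and Ppargc1a). Together these were 22.2% of the list, against 10.1% of all genes. Junb, Dusp1, Rgs2, Ppargc1a and the list members named below beyond the first 2 were chosen after their values were seen. Fos, a subunit of the AP-1 transcription factor, read 5.18, 5.10 and 5.10 in WT, 5.73, 5.76 and 5.58 in WT with Iso, 4.94, 4.94 and 5.58 in DKO and 5.29, 5.10 and 5.11 in DKO with Iso. The WT arrays with Iso were at or above every other array, and the highest untreated DKO array, at 5.58, was array 3. The interaction of Fos was -0.54 (SE 0.23, unadjusted p = 0.0342, adjusted p = 0.469) and -0.33 without that array.

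Dusp1, a phosphatase that switches off MAP kinases, whose promoter holds the CRE shown above, read 7.23, 6.99 and 6.80 in WT and 7.75, 7.99 and 7.75 in WT with Iso. In DKO it read 6.95, 6.71 and 7.76 untreated and 7.08, 6.81 and 7.32 with Iso. The WT arrays with Iso were high, and the untreated DKO array that overlapped with them was again array 3 (interaction -0.90, adjusted p = 0.422; -0.58 without the array). Nr4a1, an orphan nuclear receptor, differed from these: its Iso effect was 0.71 in WT and 0.51 in DKO, and the mice overlapped (interaction -0.20, 95% interval -0.69 to 0.28; -0.08 without untreated DKO array 3). Nr4a3, its relative, read 5.49, 5.67 and 5.34 in WT, 5.68, 5.39 and 5.33 in WT with Iso, 4.10, 5.01 and 4.64 in DKO and 5.10, 5.67 and 5.31 in DKO with Iso. Untreated DKO was low and the other 3 groups overlapped (interaction 0.81, SE 0.31, adjusted p = 0.422). The search that found the CRE of Dusp1 was for the full TGACGTCA from 250 bases before to 50 after the start. It returned none for Fos, Nr4a1 and Nr4a3, and partial or variant elements were not looked for.

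MEF2 factors and class IIa histone deacetylases are the nuclear route by which CaMKII is known to act in heart. The list named for them, which also holds genes outside these families, had a median interaction of 0.19, with 11 of 12 above 0. None passed, and 1 had an unadjusted p under 0.05 (8.33%, against 10.1% of all genes). That was Mef2a, which read 9.47, 9.51 and 9.48 in WT, 9.69, 9.73 and 9.32 in WT with Iso, 8.98, 9.40 and 8.79 in DKO and 9.84, 9.93 and 9.54 in DKO with Iso. Untreated DKO lay below untreated WT on every array, and the groups with Iso overlapped (interaction 0.62, SE 0.24, adjusted p = 0.435; 0.49 without untreated DKO array 3). The deacetylases Hdac4 (0.15, 95% interval -0.20 to 0.50), Hdac5 (-0.10, -0.48 to 0.29) and Hdac9 (0.37, -0.02 to 0.77) did not pass. Without untreated DKO array 3 the list's median was 0.32.

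Natriuretic peptides and myosin heavy chains, which change in hypertrophy, had intervals that include 0: Nppa, the atrial natriuretic peptide, at 0.33 (95% interval -0.33 to 0.99), Nppb at 0.24 (-0.11 to 0.59), and the myosin heavy chains Myh6 at 0.11 (-0.26 to 0.49) and Myh7 at 0.05 (-0.55 to 0.66). Without untreated DKO array 3, Nppa stood at 0.47 and Myh6 at 0.06. In the calcium-cycling list, 1 of 25 had an unadjusted p under 0.05 (4%, against 10.1% of all genes). That was Mcu, the pore of the mitochondrial calcium uniporter. In WT it read 5.80, 5.88 and 5.71 untreated and 6.44, 6.54 and 6.46 with Iso. In DKO it read 6.07, 5.64 and 6.51 untreated and 5.67, 6.07 and 5.53 with Iso. WT arrays were separated by Iso while DKO arrays overlapped (interaction -1.001, SE 0.28, adjusted p = 0.346). Without untreated DKO array 3 the interaction of Mcu was -0.78. Phospholamban, Pln, a phosphorylation target of CaMKII, had an interaction of -0.17 (95% interval -0.61 to 0.27), and the sarcoplasmic reticulum pump Atp2a2 had 0.40 (-0.08 to 0.89). Without untreated DKO array 3 these were -0.27 and 0.19. Atp2a2 read 12.1 on that array and 12.7 on both other untreated DKO arrays. Of 25 genes of beta-adrenergic and cyclic AMP signalling, 2 had an unadjusted p under 0.05 (8%, against 10.1% of all genes) and neither passed. They were the adenylyl cyclase Adcy9 (0.60) and the phosphodiesterase Pde3b (0.53, and 0.37 without untreated DKO array 3).

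Inflammatory genes had a median interaction of -0.29 over 28 tested (-0.22 without untreated DKO array 3, -0.19 without untreated WT array 1 and -0.14 without WT array 2 with Iso). At an unadjusted p under 0.05, 6 had a lower effect in DKO: Ccl5, Ccl3, Ccl4, Cxcl12, Cxcl2 and Il1b. None had a higher effect at that p and none passed. The 6 were 21.4% of the list, against 10.1% of all genes. Il1b read 4.76, 4.38 and 4.88 in WT, 6.27, 5.06 and 5.37 in WT with Iso, 4.86, 4.34 and 4.49 in DKO and 4.66, 4.59 and 4.65 in DKO with Iso. The WT arrays with Iso lay above all others (interaction -0.82, SE 0.36, adjusted p = 0.476). For Ccl3 the mice of the genotypes overlapped, since WT mouse 3 had an Iso difference of -0.16 against 2.34 and 1.47 in the other WT mice (interaction -1.86, adjusted p = 0.319).

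Interferon-stimulated genes had a median of -0.25, with 21 of 26 below 0, and of -0.13 without WT array 2 with Iso. Ube2l6, Oas2, Irf7, Oasl1 and Gbp2 had an unadjusted p under 0.05 with a lower effect in DKO and Stat2 with a higher one. Together these were 23.1% of the list, against 10.1% of all genes. Ube2l6, the enzyme that attaches the ubiquitin-like protein ISG15, read 4.26, 4.32 and 4.71 in WT, 5.33, 5.01 and 5.25 in WT with Iso, 5.89, 5.30 and 5.90 in DKO and 5.00, 4.62 and 5.09 in DKO with Iso. Untreated DKO was the highest group on average and untreated WT the lowest (interaction -1.56, SE 0.27, adjusted p = 0.102). Without untreated DKO array 3 the interaction of Ube2l6 was -1.45. MHC class II genes present antigen on macrophages, dendritic cells and B cells. Of 9 tested, Cd74 (-1.11), H2-Ab1 (-1.10) and H2-Eb1 (-0.64) had an unadjusted p under 0.05. These were 33.3% of the list, against 10.1% of all genes. The list's median was -0.27, with 6 below 0 and 3 above. Without untreated DKO array 3 it was -0.23, with 5 below 0. For H2-Ab1 the Iso difference was 0.10, 0.00 and 0.13 in the WT mice and -0.90, -1.03 and -1.13 in the DKO mice (adjusted p = 0.367).

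Medians below 0 were also found for markers of some other cell types, whereas those of others lay closer to 0. The 16 endothelial markers tested, of 18 on the array, averaged 6.19 to 6.44 in WT, 6.34 to 6.64 in WT with Iso, 6.50 to 6.80 in DKO and 6.34 to 6.54 in DKO with Iso. Their median interaction was -0.48, with 13 of 16 below 0, and -0.29 without untreated DKO array 3, which held the 6.80. At an unadjusted p under 0.05, 2 were lower (12.5%, against 10.1% of all genes). The 16 macrophage and leukocyte markers tested, of 23 on the array with the other 7 dim, averaged 4.47 to 4.55 in WT, 4.35 to 4.55 in WT with Iso, 4.37 to 4.61 in DKO and 4.15 to 4.25 in DKO with Iso. Their median interaction was -0.21, and 0.00 without that array. Leaving out 1 array moved it between -0.31 and 0.00, and it also shrank by over 1.5 times without untreated DKO array 1, DKO array 1 with Iso, or untreated WT array 1 or 2. Of 12 markers of neurons, Schwann cells and mesothelium on the array, 5 were dim and 7 were tested. Their median was -0.40, with 7 of 7 below 0. Without untreated DKO array 3 it was -0.36, with 6 of 7 below 0. Of the 7, 2 were lower at an unadjusted p under 0.05 (Upk1b and Upk3b, of mesothelium), 28.6% against 10.1% of all genes. The 7 markers averaged 3.86 to 3.89 in WT, 4.02 to 4.31 in WT with Iso, 3.76 to 4.04 in DKO and 3.66 to 3.91 in DKO with Iso. Atrial markers had a median of -0.31, which was -0.16 without untreated DKO array 3, -0.15 without untreated WT array 1 and -0.19 without WT array 2 with Iso. Ventricular markers had a median of -0.01. Fibroblast markers had -0.04, smooth muscle and pericyte markers 0.065 and markers of dividing cells 0.09. Without untreated DKO array 3 these last were 0.01, 0.05 and 0.10. The part of these cells in the inflammatory, interferon and MHC class II values was not tested.

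The ubiquitin-conjugating enzymes had members in both directions. Of 29 tested, Ube2d1, Ube2a, Ube2b and Ube2g1 had an unadjusted p under 0.05 with a higher effect in DKO and Ube2l6 with a lower one, together 17.2% against 10.1% of all genes. For 9 the DKO mice all lay above the WT mice, which 9.73% of all genes showed. Ube2b, whose CRE is shown above, is a close relative of Ube2a, and both act in ubiquitination of histones. It read 10.1, 10.2 and 10.2 in WT, 10.1, 10.0 and 10.1 in WT with Iso, 9.73, 9.77 and 9.64 in DKO and 10.2, 10.2 and 10.3 in DKO with Iso. Untreated DKO lay below the other 3 groups (interaction 0.60, SE 0.15, adjusted p = 0.316). Heme synthesis and breakdown, with 14 tested, also had both. At an unadjusted p under 0.05 Cpox was higher, whereas Alad (-1.31) and Urod (-0.71), which act earlier in heme synthesis, were lower. So were the heme-degrading enzymes Hmox1 (-1.08) and Blvrb (-1.03). Together these were 35.7% of the list, against 10.1% of all genes.

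Hmox1, the heme oxygenase induced by oxidative stress, read 8.70, 8.43 and 8.91 in WT, 9.48, 9.16 and 9.13 in WT with Iso, 8.71, 8.75 and 9.12 in DKO and 8.41, 8.35 and 8.30 in DKO with Iso. The WT arrays with Iso were the highest and the DKO arrays with Iso the lowest (interaction -1.08, SE 0.22, adjusted p = 0.226). Endoplasmic reticulum stress genes had a median of 0.25, with 20 of 26 above 0. It was the highest of the lists over all 12 arrays, but at 0.17 without untreated DKO array 3 it lay below the MEF2 and circadian clock lists (0.32 and 0.20). Sel1l (0.53), which serves the export of misfolded proteins, and the chaperone Dnajb9 (0.47) had an unadjusted p under 0.05 with a higher effect in DKO and the chaperone Hyou1 (-0.52) with a lower one, together 11.5% of the list against 10.1% of all genes. Of 24 Polycomb and histone H3 modification genes, Pcgf1 (-0.79) and Pcgf5 (1.28) had an unadjusted p under 0.05, 8.33% against 10.1% of all genes. Both are subunits of variant Polycomb complexes. Pcgf5 read 7.55, 7.35 and 5.77 in untreated DKO, and without array 3, which held the 5.77, its interaction was 0.72.

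**Figure D5:**
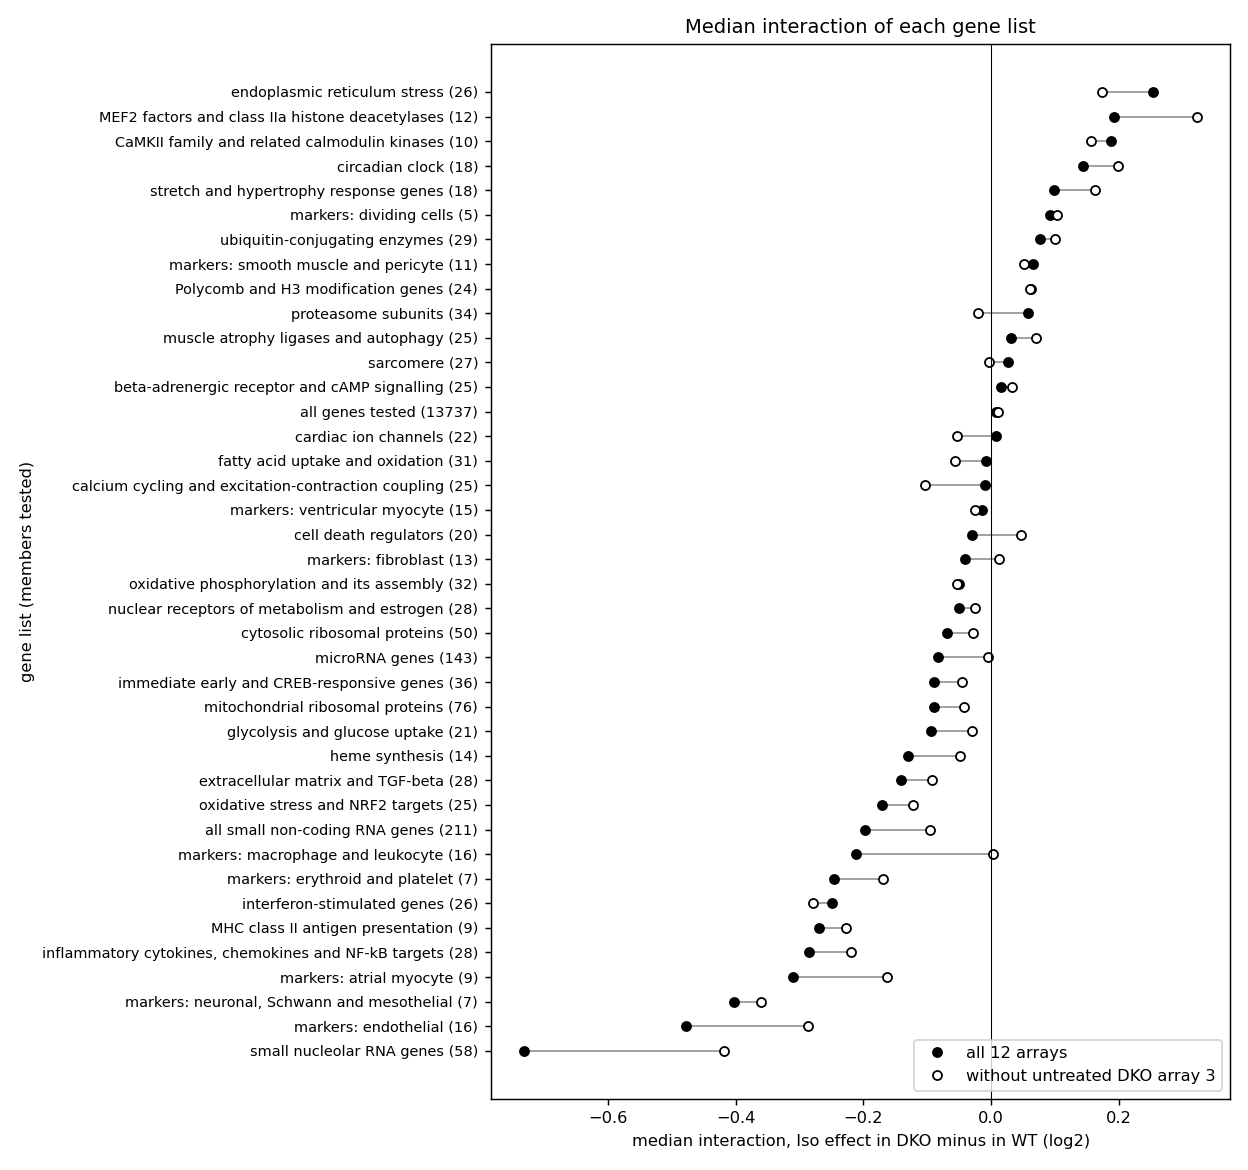
Median interaction (log2) of each gene list and class, with the number of members tested in brackets, over all 12 arrays (filled) and without untreated DKO array 3 (open). Small nucleolar RNA genes lie lowest in both (-0.73 and -0.42), all genes tested lie near 0, and the macrophage median moves from -0.21 to 0.00 without the array.

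The promoter motifs were read over all genes tested that have a promoter in the RefSeq table, 10475 genes with 300 bases each (250 before to 50 after the start), on both strands. Their median interaction was 0.01, and 9.72% had an unadjusted p under 0.05. For the 330 genes with TGACGTCA the median was 0.06 and that share 9.09%, with 14 lower and 16 higher. For the 70 genes with a MEF2 motif the median was 0.06 and the share 10%, with 1 lower and 6 higher, Mef2a, Xirp2 and Myoz2 among the 6. The lower one, with the smallest p of the 7, was Ckb, the brain-type creatine kinase (-0.83, adjusted p = 0.416). Without untreated DKO array 3 the medians were 0.03 for the CRE and 0.01 for the MEF2 motif. The CRE was in 1.79% and the MEF2 motif in 0.557% of all 32851 promoters of the table. Xirp2, a muscle protein of the intercalated disc, had an interaction of 0.63 (SE 0.27, adjusted p = 0.471), and Myoz2, a sarcomere protein that binds calcineurin, had 0.40 (SE 0.16, adjusted p = 0.447).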

How the data were processed

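Biotin-labelled RNA of cultured ventricular myocytes was hybridised to Affymetrix arrays, 12 arrays of 6 mice in 4 groups of 3. For the array type and the annotation build, the sources used here name none. The authors made the values with RMA, per the submitters' processing notes. The deposited values are log2, ran from 2.25 to 13.8, and were used as they are. Array number limits the precision of every value, and raw array files were not used here.

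Of 25428 probe sets, 24705 carried 1 gene symbol, giving 24704 genes, and 723 carried none (0 of these passed). Genes above the array median on at least 3 arrays were kept (13737), and 10967 dim genes were set aside. limma 3.58.1 in R 4.3.3 fitted 4 group means over all 12 arrays with eBayes, and the interaction was (DKO with Iso minus DKO) minus (WT with Iso minus WT). Adjustment was that of Benjamini and Hochberg over all genes kept, with a threshold of 0.05. Standard errors and 95% intervals are limma's. The calls were tested on simulated data.

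The labels give the untreated and the Iso array of a mouse the same mouse number, so the arrays are paired by animal. The deviations of the arrays of 1 mouse from their group means correlated at -0.0623 to 0.130. The consensus was 0.0333. Genes are not independent replicates in these correlations. Each mouse is a separate animal.

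Named were the 12 genes with the smallest p in each direction, up to 2 members of each list with an unadjusted p under 0.05, and a fixed set of kinase, MEF2, early-response and hypertrophy genes. Members and gene lists were chosen with earlier results of these data known, so counts and medians of lists are descriptions. Alternatives were other filters and scalings, array weights, a mouse block (fixed or random), eBayes with trend and robust fitting, an added fold threshold of 0.5 log2, no small non-coding RNA genes, and each array left out. Settings without untreated DKO array 3 and WT array 3 with Iso, and without both arrays of DKO mouse 3, were added after the data were seen. Promoter and microRNA sequences came from RefSeq on GRCm38.p6.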

Additional observations from a re-analysis of the deposited data

Results flagged for a closer look

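For 2 genes the Iso effect differed between the genotypes in the test of the difference itself. The interaction was -4.52 for Mir5112, with Iso differences of 4.11 to 4.53 in the 3 WT mice and -0.49 to 0.21 in the 3 DKO mice. It was -2.83 for Mir1932, with 2.33 to 2.92 in WT and -0.94 to 0.21 in DKO. Both probe sets carry the names of microRNA genes, and the transcript they detect was not determined here.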

How the results depend on the processing

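Against 2 genes passing in limma's test, 51 passed with array weights, 5 with the mouse as a fixed replicate block, 2 with the mouse as a random block, 7 without untreated DKO array 3 and WT array 3 with Iso, and 4 without both arrays of DKO mouse 3. Leaving out 1 array gave 2 to 16, the highest without untreated DKO array 2 and the next, 7, without untreated DKO array 3. Without small non-coding RNA genes 0 passed, which follows from leaving out both called genes, and 604 were lower and 756 higher at an unadjusted p under 0.05. That count of lower genes was 997 with no filter, 1081 with array weights and 466 to 1150 leaving out 1 array. The count of higher genes was 1215 with array weights and 512 to 1389 leaving out 1 array. The share of genes with the 3 DKO mice below the WT mice was 8.32% with quantile and 8.63% with cyclic loess scaling on top, and the share above was 8.95% with cyclic loess. Beyond the arrays and genes left out by construction, the cause was not tested.

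Of 90 named genes, 87 kept their direction in all of the 26 alternatives that gave a value, 23 passed in at least 1 alternative without passing in the fit reported, and 0 calls were lost in a setting that tested the gene. The exceptions in direction have interactions near 0. Camk2d ran from -0.24 to 0.065, Mef2d from -0.23 to 0.37 and Myh7 from -0.12 to 0.24 leaving out 1 array. Without untreated DKO array 3 and WT array 3 with Iso, Myh7 read -0.119, Camk2d -0.326 and Mef2d 0.531, and without both arrays of DKO mouse 3 Myh7 read -0.037. Apart from the counts given, the block of the mouse changed no other call than those of Esr1, Mir187 and Hbb-bt. At 3 arrays per group the median standard error was 0.235, and the smaller of the 2 called interactions was -2.83.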
